A study of Rattus norvegicus with 8 samples.

Results

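The genes described here encode the motor and the thin filament of the cardiac sarcomere: the myosin heavy chains Myh6 and Myh7, the light chains Myl2 and Myl3, the myosin-binding protein Mybpc3, the actin Actc1, the tropomyosin Tpm1, and the troponins Tnnt2, Tnni3 and Tnnc1. The members are all probe sets that the platform annotation gives to exactly 1 of these 10 genes. There were 19 such probe sets among 31042 on the array, and they stood for 9 of the 14217 genes that have such a probe set. All 5 probe sets annotated to Actc1 were annotated to a second actin gene as well, and 2 further probe sets were annotated to both Myh6 and Myh7, so these 7 were not members and Actc1 has no value.

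The hearts came from aged female Norway Brown rats of 18 to 22 months. The late estradiol rats had an ovariectomy and, 9 weeks later, received a pellet under the skin with 0.5 mg of 17-β estradiol released over 90 days. The early estradiol rats received the same pellet at the time of the ovariectomy, the ovariectomy rats had the ovaries removed and no pellet, and the sham rats were opened and closed with nothing removed. Each group had 2 expression arrays, and each array held RNA pooled from 3 hearts, so that a p-value measures the spread between pools, which may be technical in part.

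In the sarcomere, myosin heads on the thick filament pull on actin of the thin filament. Myh6 encodes the faster α heavy chain, which is the main form in the ventricle of the adult rat, and Myh7 the slower β heavy chain, the main form before birth. In rodents the balance moves toward Myh7 with age, pressure load and low thyroid hormone, and the Myh7 to Myh6 ratio is a common readout of the state of the heart muscle. Myh6 and Myh7 neighbour each other in the rat genome. Calcium switches the thin filament on through the troponin complex, whose movement shifts tropomyosin along actin.

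Overall brightness differed between arrays: the trimmed mean signal was 28.1 on late estradiol replicate 1, the dimmest, and 137 on early estradiol replicate 2, the brightest. All 4 replicate 1 arrays were dimmer than all 4 replicate 2 arrays. The ratio of 3' to 5' signal of Gapdh, a sign of RNA quality, was 2.70 on late estradiol replicate 1 and 1.26 to 1.65 on the others. The same ratio of actin was 3.01 on late estradiol replicate 1, 3.06 on ovariectomy replicate 2 and 1.71 to 2.75 on the others. Unless named as deposited signal, a value below is a log2 signal after quantile normalization, given for replicate 1 and then replicate 2. An error after ± is limma's moderated standard error.

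The sarcomere genes were among the brightest of the heart. Of the 19 probe sets, 10 from 8 genes lay at rank 83 or brighter among 31042 on every array, and a Myh7 probe set reached rank 2. Mybpc3 followed at ranks 109 to 214. The samples are labelled as heart, and these levels were not used to test that label. The remaining 8 probe sets were second or further probe sets of Myh6, Myh7, Myl2, Tnnt2 and Tpm1, and ranged down to near the floor of the array. In all, 16 passed the filter on dim signal. The 3 that did not pass were 2 of Tpm1, with mean log2 signals of 2.69 and 2.29, and a Tnnt2 probe set at 2.90. A level of a probe set depends on its own probes, so these ranks only describe signal on the array. Below, levels are compared between arrays and not between probe sets.

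**Figure D1:**
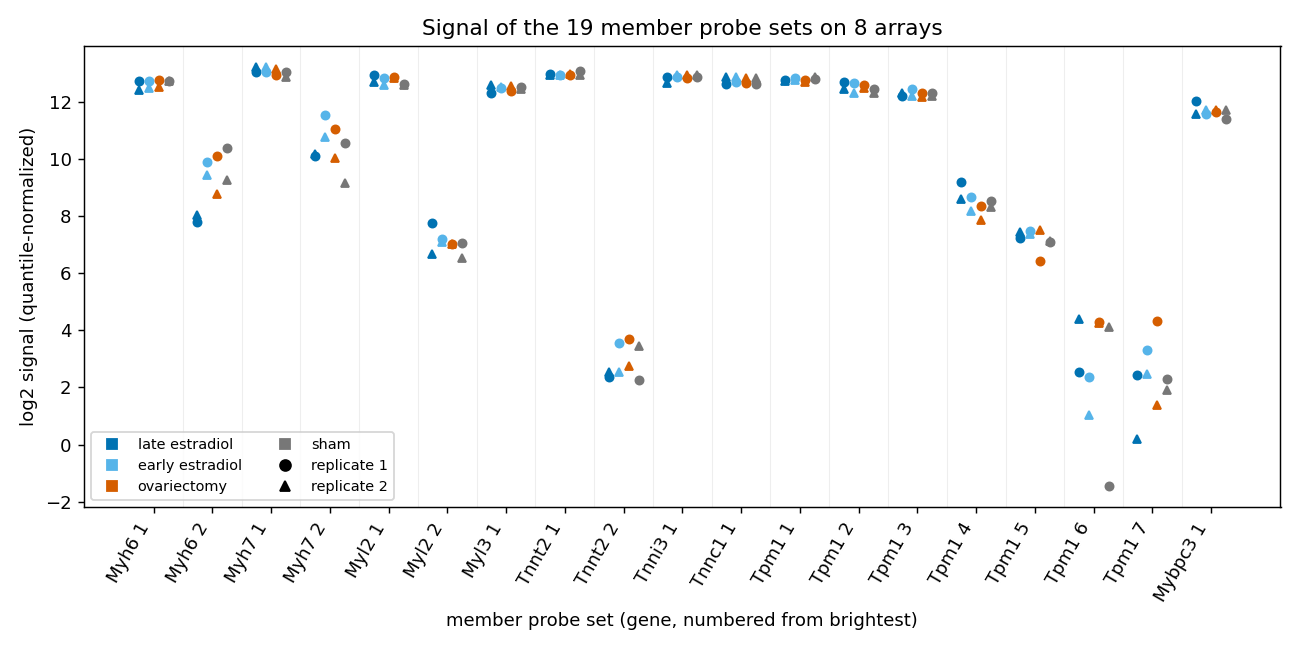
Log2 signal of each of the 19 member probe sets (x axis, numbered within a gene from the brightest) on the 8 arrays, with colour for the group and shape for the replicate number. The 10 brightest probe sets lie between 12.18 and 13.22 on all arrays, while the dimmer probe sets of Myh6 and Myh7 spread over 2.62 and 2.37 log2 units.

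No member passed the threshold in any of the 6 pairwise comparisons or in the test over the 4 groups (limma, Benjamini-Hochberg adjusted p under 0.05, 0 of 16 in each). The background in each of these 7 tests was 0% of 18625 probe sets. At an unadjusted p under 0.05, members numbered 2 of 16 for late estradiol against ovariectomy (background 4.36%), 0 for early estradiol against ovariectomy (1.71%), 0 for ovariectomy against sham (1.47%), 1 for late estradiol against sham (3.37%), 1 for early estradiol against sham (0.773%) and 2 for late against early estradiol (3.87%). Over the 4 groups together it was 1 of 16 (1.86%). The lowest limma adjusted p of a member in the 6 comparisons was 0.943. It was 0.271 with the replicate number as a block. No member was called in any recalculation, including those with 1 array left out, which leave 1 array in a group.

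The median absolute difference of the members was smaller than that of all kept probe sets in all 6 comparisons. Of the 16 members, 10 were among the 100 brightest probe sets, which vary less between arrays. The SD between arrays of a group had a median of 0.11 over the 100 brightest and 0.40 over all kept probe sets. Differences at like signal level were not compared. The median absolute log2 difference of the 16 members was 0.08 for late estradiol against ovariectomy, 0.07 for early estradiol against ovariectomy and 0.10 for ovariectomy against sham, beside 0.30, 0.24 and 0.23 over all kept probe sets. Against sham it was 0.18 with late and 0.09 with early estradiol, beside 0.28 and 0.20. For late against early estradiol it was 0.08, beside 0.29.

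**Figure D2:**
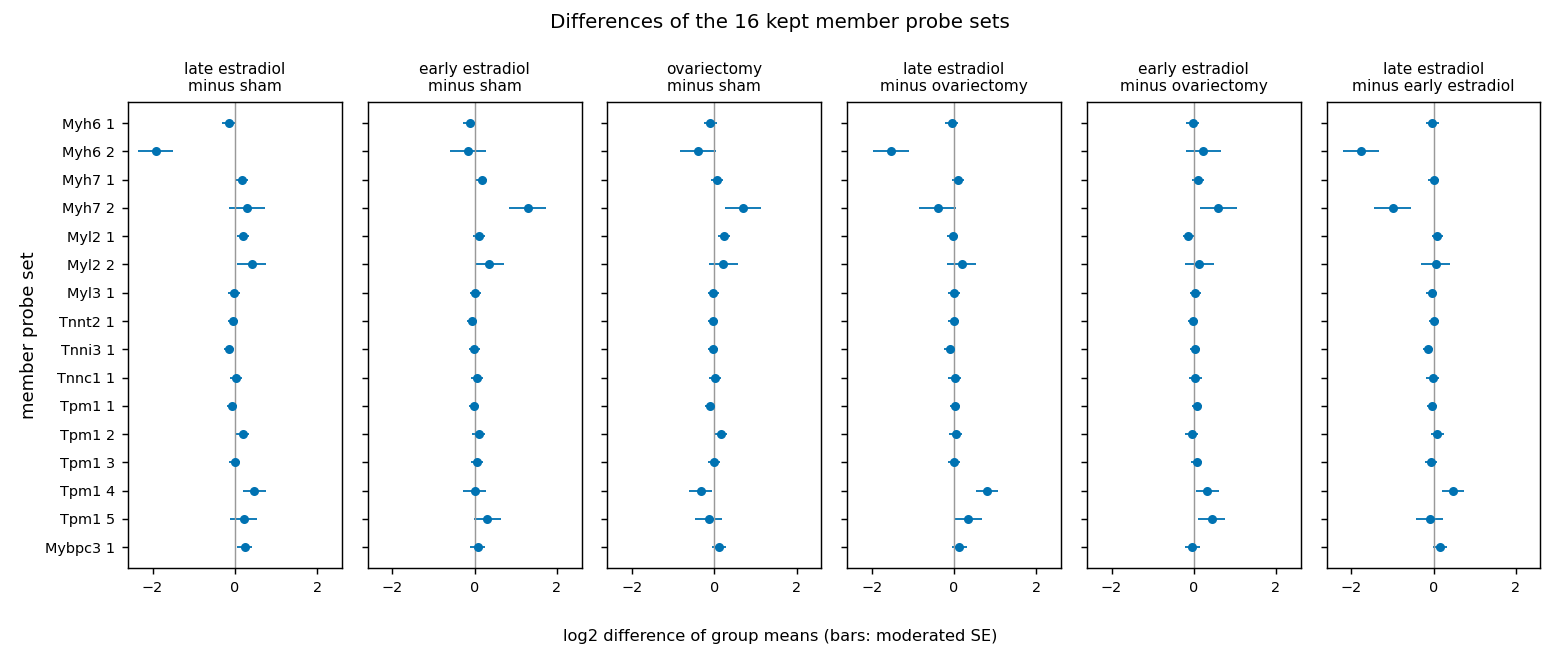
Log2 differences of group means for the 16 kept member probe sets (rows) in the 6 comparisons (panels), with bars for the moderated standard error. The 10 brightest stay between -0.15 and 0.24 in every panel, and the dimmer Myh6 probe set reaches -1.93 for late estradiol against sham.

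The brightest Myh6 probe set (1368093_at) had log2 signals of 12.74 and 12.41 with late estradiol, 12.73 and 12.48 with early estradiol, 12.76 and 12.50 after ovariectomy, and 12.73 and 12.73 in sham. All groups overlapped. Its difference was -0.06 ± 0.16 for late estradiol against ovariectomy and -0.15 ± 0.16 for late estradiol against sham. The signs turned to 0.10 and 0.20 when arrays were scaled to a common median.

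The brightest Myh7 probe set (1386993_at) had 13.04 and 13.22 with late estradiol, 13.04 and 13.22 with early estradiol, 12.92 and 13.13 after ovariectomy, and 13.04 and 12.88 in sham. All groups overlapped here too, and its differences ran from 0.00 to 0.17. Quantile normalization replaces a signal by the mean of its rank, so that probe sets at equal ranks on 2 arrays get equal values. This is why several values at the top of the scale repeat.

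The dimmer Myh6 probe set (1387049_at) varied far more. It had 7.78 and 8.03 with late estradiol, 9.90 and 9.43 with early estradiol, 10.09 and 8.77 after ovariectomy, and 10.39 and 9.27 in sham. Both late estradiol arrays lay below all 6 others, and the other 3 groups overlapped one another. Late estradiol stood 3.81-fold below sham, 3.39-fold below early estradiol and 2.89-fold below ovariectomy on this probe set, at log2 differences of -1.93 ± 0.44, -1.76 ± 0.44 and -1.53 ± 0.44. The unadjusted p was 0.00128, 0.00233 and 0.00562, and the limma adjusted p was 0.997, 0.987 and 0.943, so that no difference passed.

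In the test over the 4 groups this probe set ranked number 24 of 18625 by p (unadjusted p = 0.00463, limma adjusted p = 0.9997). With the replicate number as a block, its limma adjusted p was 0.271 for late estradiol against sham. Its 3 late estradiol differences stayed below 0 under all 17 alternatives, between -2.67 and -0.75. Of these alternatives, other filters, other priors and the replicate block cannot change a difference of group means. As deposited, the signal was 79.8 and 398 with late estradiol, 573 and 1448 with early estradiol, 598 and 755 after ovariectomy, and 1249 and 1024 in sham. The trimmed mean signal was 28.1 and 103.8 on the late estradiol arrays and 69.8 and 105.4 on the sham arrays, and its part in this difference was not tested.

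The dimmer Myh7 probe set (1367928_at) had 10.10 and 10.18 with late estradiol, 11.52 and 10.76 with early estradiol, 11.04 and 10.04 after ovariectomy, and 10.55 and 9.15 in sham. Early estradiol lay above sham and above late estradiol without overlap, and the other pairs of groups overlapped. It was 2.45-fold higher with early estradiol than in sham (log2 difference 1.29 ± 0.44, unadjusted p = 0.0157). That difference was 0.60 without sham replicate 2 and 2.01 without sham replicate 1. Late estradiol stood at -0.997 ± 0.44 against early estradiol (unadjusted p = 0.0487), with -0.61 without early estradiol replicate 1 and -1.57 without normalization between arrays. Neither passed, with limma adjusted p of 0.9999 and 0.987. The sign of late estradiol against sham, at 0.29 ± 0.44, turned to -0.39 without normalization between arrays and to -0.41 without sham replicate 2. That of ovariectomy against sham, at 0.69 ± 0.44, turned to -0.01 without sham replicate 2.

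**Figure D3:**
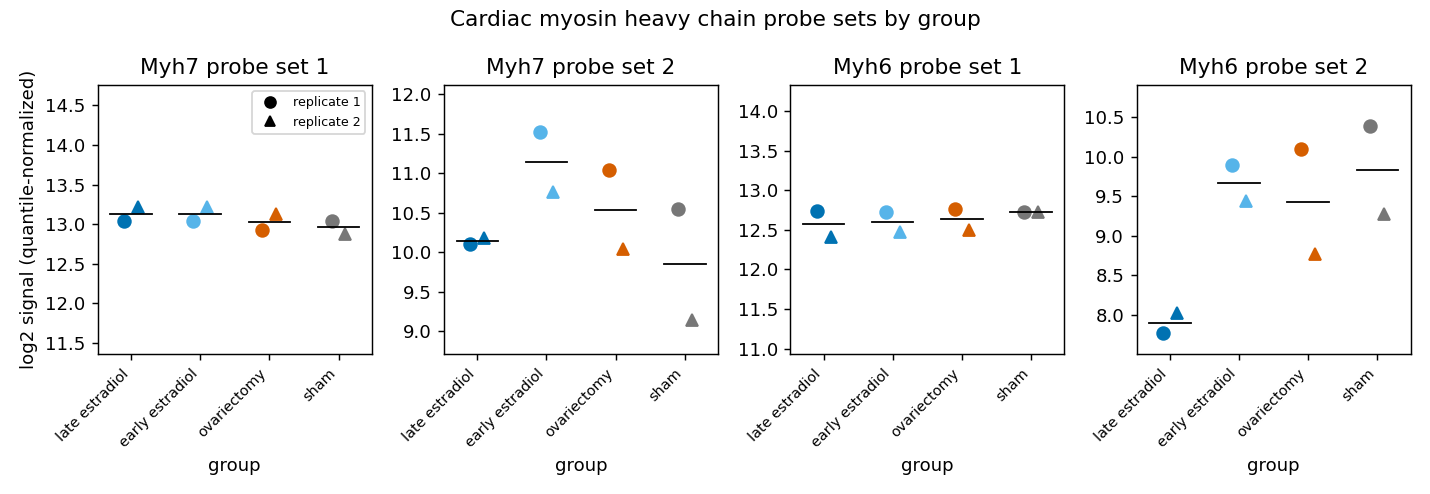
Log2 signal of both Myh7 and both Myh6 probe sets by group, with a circle for replicate 1, a triangle for replicate 2 and a line for the mean. Each panel spans 3.4 log2 units, and in the last panel both late estradiol arrays (7.78 and 8.03) lie below the lowest other array (8.77).

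The brighter and the dimmer probe set of a gene shared little of their pattern over the 8 arrays, with r = 0.45 for Myh6 and r = 0.18 for Myh7, given as descriptions. The dimmer probe sets of Myh6 and Myh7 moved together within groups. Each was lower on replicate 2 than on replicate 1 in sham, after ovariectomy and with early estradiol, and slightly higher with late estradiol. Their SD between arrays of a group was 0.64 and 0.67, beyond the upper quartile of kept probe sets of like signal, which is 0.29 at a mean level of 9.42 and 0.26 at 10.46.

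The Myh7 to Myh6 ratio of the brightest probe sets did not differ among the groups beyond the spread between arrays. Its log2 value was 0.30 and 0.81 with late estradiol, 0.31 and 0.74 with early estradiol, 0.16 and 0.63 after ovariectomy, and 0.31 and 0.15 in sham. The exact permutation test over all 105 ways to form 4 groups of 2 arrays gave p = 0.562. From the deposited signals, the linear ratio was 1.50 and 1.43 with late estradiol, 1.38 and 1.37 with early estradiol, 1.18 and 1.36 after ovariectomy, and 1.20 and 1.06 in sham. On that scale late estradiol lay above all other arrays, and the exact permutation p was 0.0667.

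The ratio of the dimmer probe sets differed among the groups when arrays were permuted without regard to replicate number. Its log2 value was 2.33 and 2.15 with late estradiol, 1.62 and 1.32 with early estradiol, 0.95 and 1.27 after ovariectomy, and 0.16 and -0.12 in sham. No group overlapped another, in the order late estradiol, early estradiol, ovariectomy and sham from high to low. The exact permutation test gave p = 0.00952, the smallest that 105 groupings can give, and 0.0381 after Benjamini-Hochberg adjustment over the 4 possible pairs of a Myh7 and a Myh6 probe set. Of the other pairs, the brightest Myh7 over the dimmer Myh6 gave p = 0.143 and the dimmer Myh7 over the brightest Myh6 p = 0.295 (exact permutation). An exact permutation within a replicate number gave p = 0.0417, the smallest that its 24 groupings allow. After the same adjustment over the 4 pairs this was 0.167, which does not pass.

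In linear terms the dimmer-pair ratio was 4.66-fold higher with late estradiol than in sham, at log2 means of 2.24 ± 0.13 and 0.02 ± 0.20 (SD, n = 2 each). Early estradiol averaged 1.47 ± 0.21 and ovariectomy 1.11 ± 0.23 (SD, n = 2 each), which put them 2.74-fold and 2.13-fold above sham. Late estradiol stood 2.19-fold above ovariectomy and 1.70-fold above early estradiol, and early estradiol 1.29-fold above ovariectomy. Against sham, ovariectomy and early estradiol, late estradiol stood at -1.93, -1.53 and -1.76 on the dimmer Myh6 probe set. On the dimmer Myh7 probe set it stood at 0.29, -0.40 and -0.997, and on the brightest Myh6 probe set at -0.15, -0.06 and -0.03. Early estradiol against sham stood at 1.29 on the dimmer Myh7 and -0.17 on the dimmer Myh6 probe set. The nearest arrays of early estradiol and ovariectomy were only 0.05 apart on the log2 scale, less than the spread within groups (SD 0.20), so these neighbours are not told apart. The exact permutation test of 2 against 2 arrays allows no p below 0.333, so the differences between single pairs of groups are given as values.

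From the deposited signals the dimmer-pair ratio was 4.93 and 4.66 with late estradiol, 3.34 and 2.31 with early estradiol, 1.98 and 2.45 after ovariectomy, and 1.09 and 0.905 in sham. Early estradiol and ovariectomy overlapped on that scale, and the exact permutation p was 0.0190, or 0.0762 after adjustment over the 4 pairs, which does not pass. The dimmer-pair ratio was also recalculated with other normalizations, an added constant, any 1 array left out, and without the 2 dimmest arrays. These were late estradiol replicate 1 and ovariectomy replicate 1. Leaving arrays out leaves 1 array in a group, so only differences are given. Signals scaled to a common median give the same ratio as the deposited signals by construction. The means kept their order in all 12 recalculations, at 2.06 to 2.37 for late estradiol minus sham, 0.60 to 0.93 for late minus early estradiol and 0.93 to 1.25 for ovariectomy minus sham. For early estradiol minus ovariectomy they ran from 0.17 to 0.53, with the lowest without the 2 dimmest arrays.

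The mean of both probe sets of each gene gave a log2 ratio of 1.31 and 1.48 with late estradiol, 0.97 and 1.03 with early estradiol, 0.55 and 0.95 after ovariectomy, and 0.23 and 0.01 in sham, with an exact permutation p of 0.00952. The groups again did not overlap, but the gap between early estradiol and ovariectomy was 0.02. This mean contains the dimmer pair, so it is not separate support. An exact permutation within a replicate number gave p = 0.0417, the smallest possible. From deposited signals the exact permutation p was 0.0190. On that scale early estradiol (2.15 and 1.78) and ovariectomy (1.52 and 1.82) overlapped. The part of each transcript that a probe set reads was not used here, and whether the brighter and dimmer probe sets read the same transcripts was not tested.

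**Figure D4:**
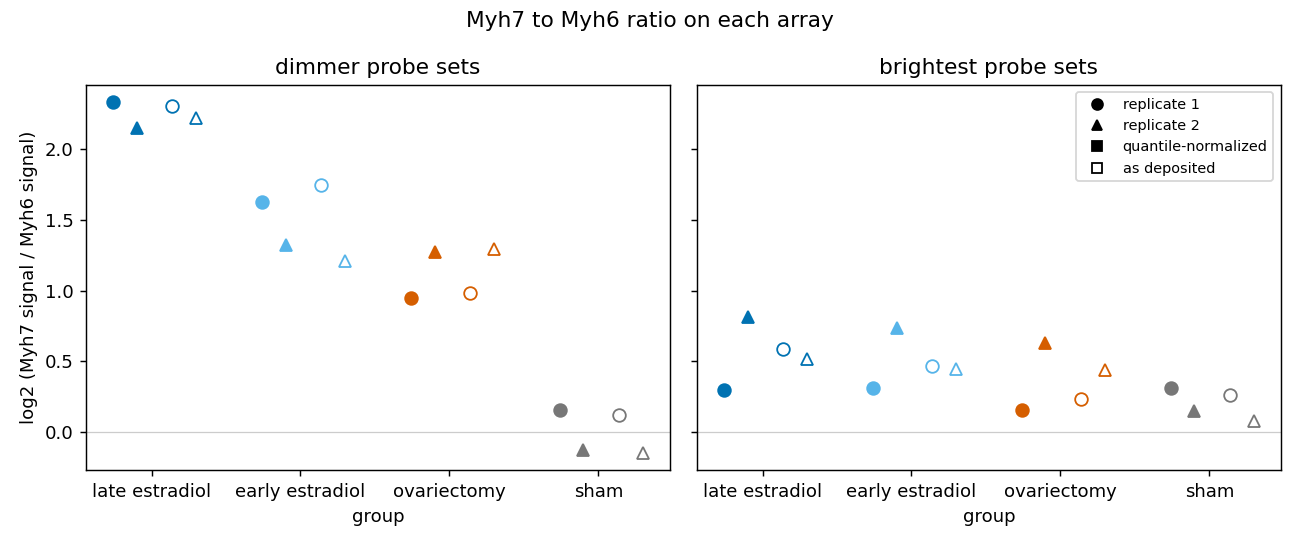
Log2 ratio of Myh7 to Myh6 signal on each array for the dimmer (left) and the brightest (right) probe sets, as filled symbols after quantile normalization and open symbols from the deposited signals. With the dimmer pair the normalized groups do not overlap and run from 2.33 at the top (late estradiol) to -0.12 (sham), while with the brightest pair the normalized values lie between 0.15 and 0.81.

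The brightest members varied least between arrays. The SD between arrays of a group had a median of 0.12 for the 10 brightest members and 0.41 for the other 6 kept members, beside 0.40 over all kept probe sets and 0.11 over the 100 brightest. Deposited signals were also compared between the dim and the bright array of a group. With late estradiol, replicate 2 over replicate 1 was 1.76 to 3.36 for the 10 brightest members, 2.81 in the median of the 100 brightest probe sets and 3.41 in the median of all kept probe sets. The dimmer Myh6 and Myh7 probe sets stood at 4.98 and 4.72 there. With early estradiol the brightest members stood at 1.55 to 1.97, beside a median of 2.88 over all kept probe sets. After ovariectomy they stood at 1.80 to 2.66, beside 2.66, and in sham at 1.34 to 1.71, beside 1.41, so that they did not lie below the median in every group. Whether the brightest probe sets were near the upper limit of the scanner was not tested.

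**Figure D5:**
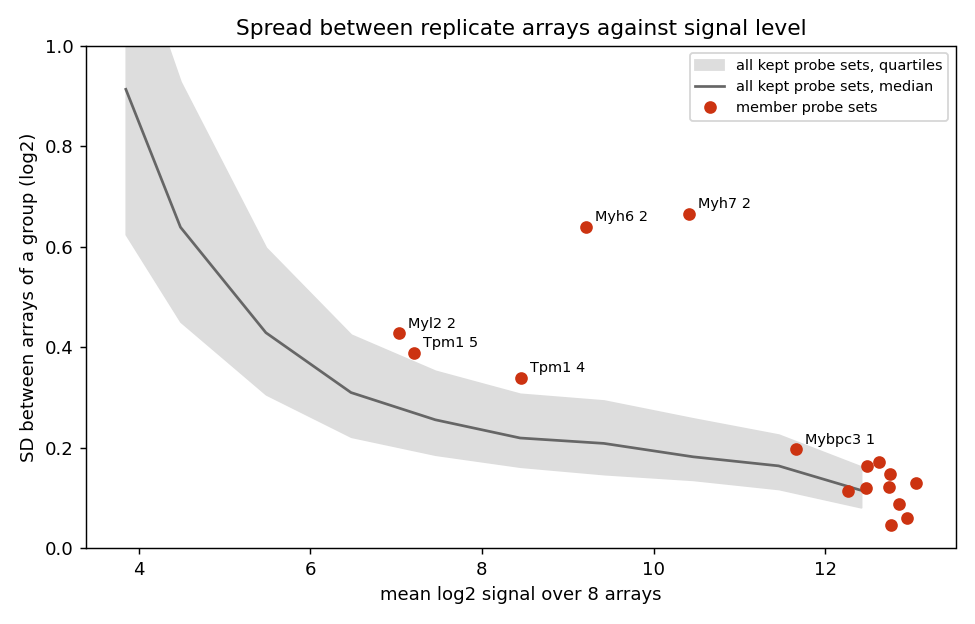
SD between the 2 arrays of a group, pooled over the 4 groups (y axis), against mean log2 signal (x axis), with grey for the median and quartiles of all kept probe sets and red points for the 16 kept members. The dimmer Myh6 and Myh7 probe sets, at 0.64 and 0.67, lie far above the grey band, and the 10 brightest members lie between 0.05 and 0.17.

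The ventricular regulatory light chain Myl2, which binds the neck of the myosin head, had log2 signals on its brightest probe set (1388200_at) of 12.93 and 12.68 with late estradiol, 12.83 and 12.60 with early estradiol, 12.85 and 12.83 after ovariectomy, and 12.63 and 12.58 in sham. Late estradiol and ovariectomy lay above sham without overlap, by 0.20 ± 0.14 and 0.24 ± 0.14 (unadjusted p = 0.188 and 0.124 in limma). Its second probe set (1388293_at) was dim, at 7.74 and 6.66 with late estradiol, 7.20 and 7.09 with early estradiol, 7.01 and 7.01 after ovariectomy, and 7.06 and 6.53 in sham. Early estradiol lay above ovariectomy and above sham there, and late estradiol overlapped all others.

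The essential light chain Myl3 (1367572_at) was flat, with 12.32 and 12.60 with late estradiol, 12.49 and 12.52 with early estradiol, 12.38 and 12.55 after ovariectomy, and 12.52 and 12.46 in sham. Its largest of 6 differences was -0.05 ± 0.14, for late against early estradiol. Mybpc3, the myosin-binding protein C that tunes the availability of heads, had 12.01 and 11.58 with late estradiol, 11.55 and 11.71 with early estradiol, 11.63 and 11.71 after ovariectomy, and 11.40 and 11.71 in sham. Late estradiol replicate 1 was its highest array, all groups overlapped, and late estradiol stood at 0.24 ± 0.18 against sham. That difference was 0.02 without late estradiol replicate 1, and it turned to -0.15 without normalization between arrays.

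The group means of the 3 kept troponin probe sets spanned 0.07, 0.14 and 0.05 for Tnnt2, Tnni3 and Tnnc1. Tnnt2 (1367592_at), which anchors the complex to tropomyosin, had 12.97 and 12.92 with late estradiol, 12.95 and 12.92 with early estradiol, 12.95 and 12.97 after ovariectomy, and 13.08 and 12.92 in sham. Its differences lay between -0.07 and 0.01. Tnni3, the inhibitory subunit, had 12.88 and 12.66 with late estradiol, 12.88 and 12.93 with early estradiol, 12.83 and 12.92 after ovariectomy, and 12.88 and 12.95 in sham. Its lowest array was late estradiol replicate 2, and late estradiol stood at -0.14 ± 0.13 against sham, which turned to 0.28 with arrays scaled to a common median.

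Tnnc1, the calcium-binding subunit, had 12.63 and 12.88 with late estradiol, 12.68 and 12.88 with early estradiol, 12.66 and 12.83 after ovariectomy, and 12.62 and 12.83 in sham. It was higher on replicate 2 in every group, and its group means spanned only 0.05.

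Tropomyosin Tpm1 winds along actin and is spliced into several muscle and non-muscle forms, and it had 7 probe sets. The 3 brightest had mean log2 signals of 12.77, 12.49 and 12.27, and their 18 differences stayed between -0.09 and 0.20. The first of them (1368724_a_at) had 12.75 and 12.74 with late estradiol, 12.83 and 12.75 with early estradiol, 12.75 and 12.69 after ovariectomy, and 12.78 and 12.85 in sham. On this probe set both late estradiol and ovariectomy lay just below sham, by -0.07 ± 0.12 and -0.09 ± 0.12. These turned to 0.27 and 0.12 with arrays scaled to a common median. The second (1371241_x_at) went the other way against sham, at 0.20 ± 0.16 with late estradiol and 0.16 ± 0.16 after ovariectomy. Of these, only ovariectomy and sham did not overlap. The third (1370288_a_at) stood at -0.01 ± 0.14 in both comparisons.

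The fourth Tpm1 probe set (1395794_at) had the widest range of group means among the 5 kept. It had 9.20 and 8.58 with late estradiol, 8.67 and 8.17 with early estradiol, 8.34 and 7.84 after ovariectomy, and 8.53 and 8.31 in sham. Late estradiol lay above ovariectomy and above sham without overlap, and was 1.74-fold higher than ovariectomy (log2 difference 0.80 ± 0.28, unadjusted p = 0.0163, limma adjusted p = 0.943). That difference stayed above 0 under all 17 alternatives, between 0.40 and 1.10, though other filters, other priors and the replicate block cannot change it. The difference from sham, 0.47 ± 0.28, turned to -0.31 without normalization between arrays. The fifth (1370287_a_at) had group means of 7.32, 7.42, 6.98 and 7.11 with late estradiol, early estradiol, ovariectomy and sham.

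Members whose arrays did not overlap between 2 groups were counted beside the same count over the whole array. For late estradiol against ovariectomy, 1 of 16 was higher (background 15.7%) and 1 lower (13.4%), and for early estradiol against ovariectomy 1 was higher (14.7%) and 1 lower (12.3%). For ovariectomy against sham, 2 were higher (11%) and 1 lower (14.1%). For late estradiol against sham, 3 were higher (14.5%) and 2 lower (16.1%), and for early estradiol against sham 3 were higher (12.1%) and 0 lower (12.7%). For late against early estradiol, 0 were higher (15.5%) and 2 lower (16.3%). Nothing about the members is read from these counts.

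Other genes of the sarcomere did not pass either. Of 30 listed genes of the titin filament, M-band, Z-disc and their chaperones, 25 had a kept probe set, and 0 of 25 were called higher or lower in any of the 6 comparisons. Their median difference was 0.04 for late estradiol against ovariectomy, 0.10 for early estradiol against ovariectomy and -0.06 for ovariectomy against sham, beside 0.01, 0.02 and -0.03 over all kept probe sets. Tcap, which caps titin at the Z-disc, had the smallest p. It had 11.89 and 11.84 with late estradiol, 11.69 and 11.73 with early estradiol, 11.37 and 11.55 after ovariectomy, and 11.84 and 12.05 in sham. Ovariectomy was the lowest group without overlap, at -0.49 ± 0.14 against sham (unadjusted p = 0.00625), and late estradiol stood at 0.41 ± 0.14 against ovariectomy (unadjusted p = 0.0167). Pdlim5, a Z-disc protein, was next, at 0.49 ± 0.25 for late estradiol against ovariectomy.

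Of 21 isoforms of skeletal or fetal muscle, 12 had a kept probe set and 0 were called. Acta1, the actin of skeletal muscle, had 11.76 and 11.07 with late estradiol, 11.64 and 11.61 with early estradiol, 11.86 and 12.25 after ovariectomy, and 11.33 and 11.26 in sham. Both ovariectomy arrays lay above all others. Myl1, the essential light chain of fast skeletal muscle, stood at 0.96 ± 0.45 for late estradiol against ovariectomy.

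The atrial light chains were dim and uneven between pools. Myl4, the essential light chain of the atrium, had 7.50 and 6.30 with late estradiol, 8.59 and 6.96 with early estradiol, 6.19 and 6.58 after ovariectomy, and 5.74 and 5.99 in sham. Early estradiol was highest, at 1.91 ± 0.52 against sham (unadjusted p = 0.00445), and did not pass. Nr2f2, a transcription factor of atrial identity, stood at 0.49 ± 0.30 for late estradiol against ovariectomy. Myl7, the atrial regulatory light chain, had 7.53 and 5.18 with late estradiol, 8.74 and 5.74 with early estradiol, 3.89 and 5.88 after ovariectomy, and 6.49 and 4.81 in sham, and all groups overlapped. In whole-heart RNA, fewer cells of a type and less RNA per cell cannot be told apart.

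Markers of other cells were also compared between the groups in which the myosin ratio was compared. For late estradiol against ovariectomy, 11 of 12 fibroblast markers and 12 of 14 macrophage markers were lower, 4 of 6 atrial markers were higher, and 0 of these were called. For late estradiol against sham, 9 of 12 fibroblast and 10 of 14 macrophage markers were lower, and 4 of 6 atrial markers higher. For early estradiol against sham, 12 of 12 fibroblast, 14 of 14 macrophage and 5 of 6 atrial markers were higher. For late against early estradiol, 11 of 12, 14 of 14 and 5 of 6 were lower. In these comparisons too, 0 were called. The summed normalized signal of the fibroblast markers was 6015 to 8260 with late estradiol, 8569 to 9775 with early estradiol, 9748 to 10158 after ovariectomy and 8097 to 8482 in sham. Col3a1, a chain of type III collagen, had 8.81 and 8.98 with late estradiol, 10.21 and 9.75 with early estradiol, 10.59 and 10.64 after ovariectomy, and 9.91 and 9.74 in sham. Both late estradiol arrays were its lowest and both ovariectomy arrays its highest, and over the 4 groups it had the smallest p of these markers (3.27e-05, limma adjusted p = 0.610). Col1a1, a chain of type I collagen, stood at -1.71 ± 0.29 for late estradiol against ovariectomy. The summed signal of the macrophage markers was 1408 to 2239 with late estradiol, 2714 to 3357 with early estradiol, 1730 to 6384 after ovariectomy and 1734 to 1859 in sham. The 6384 was on ovariectomy replicate 2, and the 1730 of replicate 1 lay within the late estradiol range. Fcer1g and Gpnmb, both expressed by macrophages, stood at -1.21 ± 0.39 and -2.41 ± 0.84 for late estradiol against ovariectomy. The summed signal of the atrial markers was 2070 to 4180 with late estradiol, 2755 to 3187 with early estradiol, 1267 to 3069 after ovariectomy and 705 to 2617 in sham.

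Of the endothelial markers, 7 of 9 were higher and 2 lower for late estradiol against ovariectomy, and 0 were called. Their summed signal was 2580 to 3364 with late estradiol, 2665 to 2815 with early estradiol, 2203 to 2531 after ovariectomy and 2454 to 2497 in sham. Vwf and Tek had the smallest p, at 0.41 ± 0.27 and 0.54 ± 0.22 for late estradiol against ovariectomy. Of the smooth muscle markers, 3 of 8 were higher and 5 lower, and 0 were called. Their summed signal was 2450 to 3784 with late estradiol, 4263 to 4609 with early estradiol, 3629 to 4348 after ovariectomy and 3912 to 4198 in sham. Des, a muscle intermediate filament that is also among the listed sarcomere genes, and Pdgfrb stood at -0.57 ± 0.28 and -0.71 ± 0.39 for late estradiol against ovariectomy.

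The 11 measured cardiomyocyte markers outside the sarcomere summed to 49398 to 51619 with late estradiol, 49680 to 51707 with early estradiol, 48993 to 49757 after ovariectomy and 51053 to 51572 in sham. Ryr2 and Kcnj11 had the smallest p among them, at 0.12 ± 0.19 and 0.38 ± 0.20 for late estradiol against ovariectomy. Chosen after the values were seen, the dimmest single values of the marker lists were those of Aif1 and Ptprc among macrophage markers and Sln among atrial markers, with a lowest log2 signal of -0.18, 1.16 and 1.96. The part of these cells in the myosin ratio was not tested.

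Genes with the pattern most like the brightest Myh7 probe set over the 8 arrays were Ntsr1 (r = 0.97), Sh2b1 (r = 0.93) and Pdia3 (r = 0.91), among 10441 genes. Those most like the brightest Myh6 probe set were Hs3st5 (r = 0.97), Gas2 (r = 0.96) and Mzf1 (r = 0.94). Those most like the brightest-pair ratio were Rack1 (r = 0.95), Sh2b1 (r = 0.93) and Nudt16l1 (r = 0.92). The Spearman rank correlation was lower for Gas2 (0.68) and Nudt16l1 (0.66), and 0.85 to 0.98 for the other named genes. These correlations describe 8 arrays that share the difference between replicate 1 and replicate 2, and carry no test.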

How the data were processed

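RNA of 8 pools was measured on single-colour Affymetrix arrays, and the authors deposited linear signal intensity values. The submitters' processing notes name MAS5, and neither its version nor a scaling target is stated there. From 31099 probe sets, 57 controls were left out. The values were taken to log2 and quantile-normalized, and the 18625 probe sets whose mean reached the 40th percentile of all means entered a linear model (limma 3.58.1, R 4.3.3, 4 group means, intensity trend, 4 residual degrees of freedom, Benjamini-Hochberg adjustment over all kept probe sets, two-sided, threshold 0.05). The number of arrays limits the precision.

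The ratio of Myh7 to Myh6 was the difference of log2 values on an array, first for the brightest probe set of each gene and then for every other pair, tested by an exact permutation test of F. A gene of another list was taken at its brightest kept probe set. All member probe sets are described. Of each other list, 2 or 3 genes of smallest p over the 4 groups are named, and the 3 genes of highest correlation are named for each myosin pattern. The members, lists and settings were chosen with earlier results of these data known. Gene names came from the platform annotation. All 10 genes are in the RefSeq table of GRCr8, which was used for names and neighbours only. Same-numbered arrays deviated together from their group means in all 6 pairs of groups (r = 0.28 to 0.33 across probe sets), so the replicate number was used as a block in an alternative. The fits were tested on simulated data with the median spread of all kept probe sets, for late estradiol against ovariectomy. Of 200 changed probe sets, 4% were called at a log2 difference of 1, 93% at 2 and 100% at 4. That median spread was 0.40, beside a median SD of 0.12 for the 10 brightest members and 0.41 for the other 6 kept members. The dimmer Myh6 and Myh7 probe sets stood at 0.64 and 0.67. These percentages are therefore not the rates for single members. A count of 0 called members does not show that the members were unchanged. Alternatives were other normalizations, filters, an added constant, other priors and arrays left out.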

Additional observations from a re-analysis of the deposited data

How the results depend on the processing

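Member probe sets called stayed at 0 in all 119 recalculated counts, including the fit with the replicate block. Over all probe sets, calls for late estradiol against ovariectomy were 1 with no filter, 1 with the filter at the 60th percentile, 1 with 32 added before the log and 1 with the replicate block, against 0 otherwise. With 1 array left out they ranged from 0 to 65 for late estradiol against ovariectomy, from 0 to 86 for late estradiol against sham, from 0 to 100 for late against early estradiol, from 0 to 3 for ovariectomy against sham and from 0 to 1 over the 4 groups. The highest of these counts came without late estradiol replicate 2, except that for ovariectomy against sham, which came without ovariectomy replicate 1. Without the 2 dimmest arrays 5 probe sets were called for ovariectomy against sham. The cause was not tested. The brightest-pair Myh7 to Myh6 ratio had exact permutation p of 0.0667 from deposited signals and 0.500 with the replicate block. Scaling arrays to a common median does not change a ratio within an array, so it repeats the deposited result. Exact permutation p was 0.00952 with the dimmer probe sets and 0.00952 with the mean of both probe sets, which contains the dimmer pair. The dimmer-pair ratio was examined under each setting after seeing the data. It had exact permutation p of 0.0190 from deposited signals and 0.0417 with the replicate block. After adjustment over the 4 pairs these were 0.0762 and 0.167, which do not pass. Without normalization the median of all probe sets moved by up to -0.62 (late estradiol against sham).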
